A study of Homo sapiens with 4 samples.

Results

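The SOX genes were compared between the nuclear and cytoplasmic RNA of HEK293T cells, an immortal line derived from human embryonic kidney and expressing the large T antigen of SV40. Of 9 listed SOX genes, SOX2, SOX3, SOX4, SOX11 and SOX12 have no intron and SOX5, SOX6, SOX9 and SOX13 have introns, and the members were found by their symbols among 51699 gene identifiers. All 8 listed genes other than SOX2 were found and tested, 4 without introns and 4 with introns, among 22328 tested genes. SOX2 was not found under its symbol or identifier and is not analysed here. All 4 libraries came from wildtype cells crosslinked with formaldehyde and then separated into fractions, with 2 biological replicates of the nuclear and 2 of the cytoplasmic fraction. Cells were not treated otherwise, and each stranded library was made from the same mass of RNA with a kit that removes ribosomal RNA. A value is therefore relative to the other RNA of its fraction and not an amount per cell. In these bulk samples fewer cells and less RNA per cell cannot be told apart.

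SOX proteins are transcription factors that bind the minor groove of DNA through an HMG box, a domain named for the high mobility group proteins, and bend the DNA. The family is named after the sex-determining factor SRY. They fall into groups by the sequence of that box. SOX2 and SOX3 are SoxB1 factors of neural progenitors and stem cells, and SOX4, SOX11 and SOX12 are the SoxC factors of developing neurons and mesenchyme. SOX5, SOX6 and SOX13 are SoxD factors, which lack an activation domain of their own and pair through a coiled coil. SOX9, a SoxE factor, directs cartilage formation and testis development. An mRNA without introns needs no splicing before it leaves the nucleus, whereas a gene with long introns is transcribed for a long time and yields a precursor many times longer than its mRNA.

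The gene models differ widely in length, as annotated in GENCODE 44 on hg38. The genes without introns have 1 exon and span 2.09 kb for SOX3 (chromosome X, 140502985 to 140505069), 4.67 kb for SOX12 (chromosome 20, 325552 to 330224), 4.87 kb for SOX4 (chromosome 6, 21593751 to 21598619) and 9.002 kb for SOX11 (chromosome 2, 5692384 to 5701385). SOX9 is nearly as compact, with 3 exons in 5.40 kb (chromosome 17, 72121020 to 72126416) and introns in 27.2% of that length. SOX13 has 14 exons in its reference transcript and spans 54.6 kb (chromosome 1, 204073115 to 204127743). Over all annotated transcripts SOX6 spans 773 kb (chromosome 11, 15966449 to 16739591) and SOX5 spans 1033 kb (chromosome 12, 23529504 to 24562544). Their reference transcripts are shorter, with 16 exons in 390 kb for SOX6 and 15 exons in 420 kb for SOX5. Gene spans and intron shares in this report are those over all transcripts. Introns make up 86.4% of SOX13, 97.4% of SOX6 and 98.9% of SOX5. The authors counted reads over exons and introns together, so unspliced RNA adds to the value of a gene with introns in either fraction.

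The intron ends of these genes are shown to place the sequence that divides them from SOX3, SOX4, SOX11 and SOX12. Each is written on the gene's own strand with 10 exonic and 10 intronic bases. Capitals mark the first 2 or the last 2 bases of the intron, which are GT and AG in every case. SOX9 intron 1 is 896 bases and intron 2 is 570 bases long. The longest introns of the reference transcripts measure 39.2 kb in SOX13 (intron 1), 83.8 kb in SOX6 (intron 3) and 90.3 kb in SOX5 (intron 3).
SOX9 intron 1, start (chr17:72121813-72121832, plus strand): agctctggagGTaggacccg
SOX9 intron 1, end (chr17:72122709-72122728, plus strand): ccccgagcAGacttctgaac
SOX9 intron 2, start (chr17:72122963-72122982, plus strand): gagcactcggGTgagtcgcc
SOX9 intron 2, end (chr17:72123533-72123552, plus strand): ttgtccacAGggcaatccca
SOX13 intron 1, start (chr1:204073702-204073721, plus strand): tggctgagtaGTaagtgcac
SOX13 intron 1, end (chr1:204112905-204112924, plus strand): cctcccccAGgatgtccatg
SOX6 intron 3, start (chr11:16318436-16318455, minus strand): gaacaagaggGTatgtgtgg
SOX6 intron 3, end (chr11:16234662-16234681, minus strand): attttaatAGattcctcctg
SOX5 intron 3, start (chr12:23845973-23845992, minus strand): gagccggaagGTaaaggctg
SOX5 intron 3, end (chr12:23755715-23755734, minus strand): ctttacttAGaaacccccag

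Counts per library were recovered from the deposited mean of each gene. Which replicate number a library has is not known, so the libraries of a fraction are named the deeper and the shallower. Total counts on genes were estimated at 21346022 to 24571125 per library. A normalized count is the count divided by the library's size factor, which was 1.34 and 1.19 for the nuclear and 0.853 and 0.755 for the cytoplasmic libraries. As a check of the fractions, NEAT1, an RNA of nuclear paraspeckles, had 5613 and 4627 normalized counts in the nuclear libraries and 606 and 596 in the cytoplasmic libraries. KCNQ1OT1 was also higher in the nuclear fraction. TUG1, listed as a nuclear RNA for this check although it is found in both compartments, was higher in the cytoplasmic fraction (log2 difference 0.91). These were the 3 tested of 5 listed nuclear RNAs, since the counts of MALAT1 were not recovered and MEG3 had a mean under 2. Of 23 ribosomal protein genes whose counts were recovered, 22 were higher in the cytoplasmic fraction and none in the nuclear fraction, with a median log2 difference of 3.25. These genes were chosen after their values were seen, because the 6 cytoplasmic mRNAs listed for this check had means too high for their counts to be recovered. The HEK293T markers NEFL, NEFM and VIM had authors' means of 13195, 16264 and 18261 normalized counts over all libraries, while NEFH was near 0 with a mean of 0.876. LHX1 (mean 245) was higher in cytoplasmic RNA and PAX2 (mean 63.1) in nuclear RNA.

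To ask whether RNA of SOX genes with and without introns differs between the fractions, both were compared by limma on log2(normalized count + 1). The counts include unspliced RNA, so they do not show how the mRNAs alone partition. A positive log2 difference means a higher normalized count in the cytoplasmic libraries. Library totals in place of size factors shifted the differences by a median of -0.66. A small positive difference therefore need not be a larger share of cytoplasmic reads. A gene was called where its adjusted p did not exceed 0.01. Of the 4 tested SOX genes without introns, 3 were higher in the cytoplasmic fraction and none in the nuclear fraction. Of the 4 with introns, 3 were higher in the nuclear fraction and none in the cytoplasmic fraction. Among all tested genes 6518 (29.2%) were higher in cytoplasmic RNA and 7572 (33.9%) in nuclear RNA. The median log2 difference was 1.83 for the genes without introns and -2.08 for those with introns, against -0.14 for all tested genes and 0.09 for tested protein-coding genes. These are descriptions of 8 genes chosen with results in view, and no test was made between the classes.

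**Figure D1:**
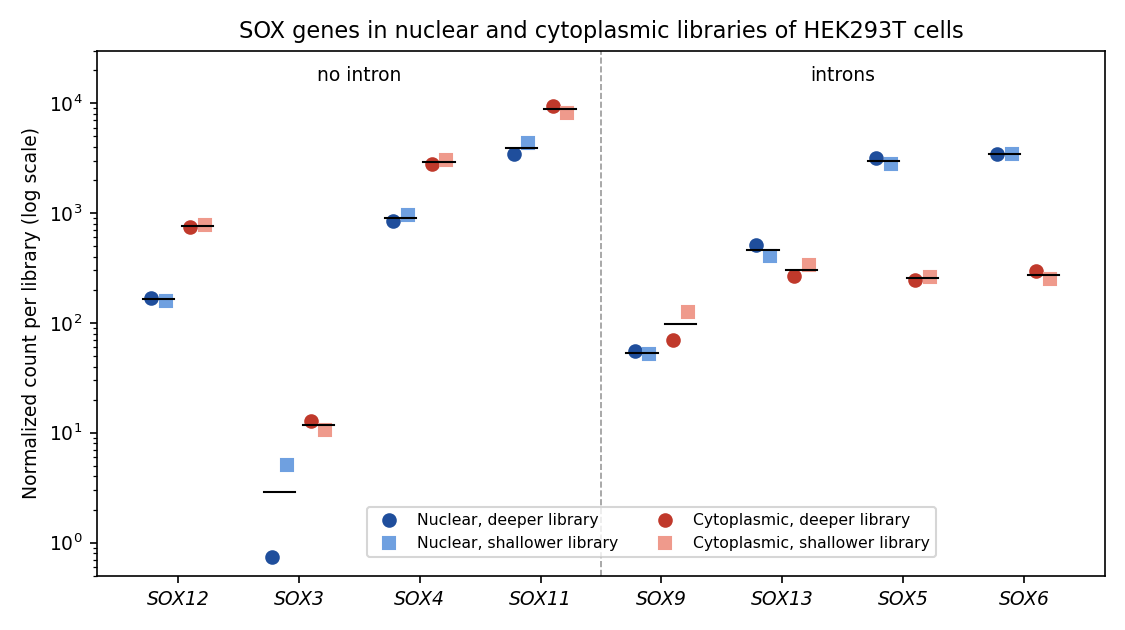
Normalized counts of the 8 tested SOX genes in each library, on a log scale, with the gene on the horizontal axis; blue marks are nuclear libraries, red marks cytoplasmic libraries and black bars the mean of each fraction. The red marks lie above the blue marks in every gene without introns and in SOX9, and below them in SOX13, SOX5 and SOX6.

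All 3 SoxC genes were higher in the cytoplasmic than in the nuclear fraction. SOX12 had 169 and 160 normalized counts in the nuclear libraries and 747 and 771 in the cytoplasmic libraries. Its libraries differed by little within a fraction, and both cytoplasmic libraries lay far above both nuclear ones. The log2 difference was 2.20 (SE 0.12, adjusted p = 3.5e-08), and the cytoplasmic mean was 4.61-fold the nuclear mean.

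SOX4 had 852 and 954 normalized counts in the nuclear and 2809 and 3045 in the cytoplasmic libraries. The fractions did not overlap, and the log2 difference was 1.70 (SE 0.10, adjusted p = 7.5e-08). SOX11, the most abundant of the SoxC genes per kb, had 3454 and 4326 normalized counts in the nuclear and 9334 and 8187 in the cytoplasmic libraries. The fractions were again apart, with a log2 difference of 1.18 (SE 0.12, adjusted p = 6.7e-06). The difference of SOX11 was smaller than that of SOX4, and the values of both genes over the 4 pairs of a nuclear with a cytoplasmic library did not overlap (0.92 to 1.43 for SOX11, 1.56 to 1.84 for SOX4).

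SOX3, the SoxB1 gene that was measured, was close to the lower limit of detection. It had 1 and 6 counts in the nuclear libraries and 11 and 8 in the cytoplasmic libraries. The cytoplasmic libraries were the higher, but the log2 difference of 1.97 (SE 0.63) did not pass the threshold (adjusted p = 0.016) and its 95% interval ran from 0.57 to 3.36. The size of its difference could not be told from those of SOX12 and SOX4, whose ranges over library pairs it overlapped. The value rested on the nuclear libraries, being 1.07 without the deeper and 2.86 without the shallower of them, and neither was called (adjusted p = 0.12 and 0.024).

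SOX5 and SOX6 stood farthest on the nuclear side. SOX5 had 3184 and 2817 normalized counts in the nuclear and 246 and 262 in the cytoplasmic libraries. SOX6 had 3462 and 3443 in the nuclear and 295 and 253 in the cytoplasmic libraries. In both genes the lowest nuclear value was more than 10.7-fold the highest cytoplasmic value. The log2 difference was -3.55 (SE 0.11, adjusted p = 1.1e-09) for SOX5 and -3.65 (SE 0.11, adjusted p = 1.0e-09) for SOX6. These partners in cartilage formation did not differ from each other beyond their spread, and 1.46% and 1.22% of tested protein-coding genes had a lower value.

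SOX13, the remaining SoxD gene, was only moderately nuclear. It had 513 and 403 normalized counts in the nuclear and 266 and 335 in the cytoplasmic libraries. The fractions did not overlap, but the lowest nuclear value was only 1.20-fold the highest cytoplasmic value. The log2 difference was -0.60 (SE 0.16, adjusted p = 0.0053), and no value of it over library pairs reached those of SOX5.

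SOX9 was the listed gene with introns that was not higher in the nuclear fraction. It had 55.2 and 52.1 normalized counts in the nuclear libraries and 70.4 and 125 in the cytoplasmic libraries. The nuclear libraries were close together and the cytoplasmic libraries were not, although both lay above the nuclear ones. The log2 difference of 0.79 (SE 0.28) did not pass the threshold (adjusted p = 0.023), with a 95% interval from 0.18 to 1.40. Its range over library pairs overlapped that of SOX11 and lay above that of SOX13.

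In order of their log2 differences the listed genes were SOX12, SOX3, SOX4, SOX11, SOX9, SOX13, SOX5 and SOX6. Neighbours in this order whose ranges over library pairs did not overlap were SOX4 and SOX11, SOX9 and SOX13, and SOX13 and SOX5. The mean level of the genes without introns on the log2(normalized count + 1) scale was 7.43 and 7.98 in the nuclear and 9.50 and 9.43 in the cytoplasmic libraries. For the genes with introns it was 9.55 and 9.40 in the nuclear and 7.59 and 7.85 in the cytoplasmic libraries. The class means of the listed genes thus separated the fractions in every library, in opposite directions, although SOX9 itself lay on the cytoplasmic side. Over all 10 tested SOX genes with introns, listed or not, the mean was 5.78 and 5.83 in the nuclear and 4.87 and 5.17 in the cytoplasmic libraries.

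The calls depended on the nuclear pair of libraries. Without the deeper nuclear library no gene of all 22328 was called by limma, with 13361 genes at an unadjusted p under 0.05, and without the shallower one none was called, with 13609. The lowest adjusted p was then 0.012 and 0.011, and SOX12, SOX5 and SOX6 were at those values, with log2 differences of 2.16 to 2.24, -3.64 to -3.47 and -3.66 to -3.65. SOX4 was at 0.012 and 0.011, SOX11 at 0.034 and 0.023 and SOX13 at 0.20 and 0.080. Without the deeper cytoplasmic library SOX13 was no longer called (log2 difference -0.44, adjusted p = 0.067) and SOX9 was (1.20, adjusted p = 0.0031), whereas SOX9 fell to 0.39 without the shallower cytoplasmic library (adjusted p = 0.18). Library totals in place of size factors shifted the cytoplasmic against the nuclear libraries by -0.66 on the log2 scale, and 27.5% instead of 46.3% of all calls were then cytoplasmic. Low genes moved by less than that, such as SOX3 to 1.45. With library totals SOX11 was at 0.51 (adjusted p = 0.0046), SOX9 at 0.14 (adjusted p = 0.66) and SOX13 at -1.26.

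Levels between genes were compared per kb. Per kb of annotated exons, the cytoplasmic mean was 973 normalized counts for SOX11, 601 for SOX4, 162 for SOX12 and 5.64 for SOX3. It was 40.5 for SOX13, 24.8 for SOX9, 22.5 for SOX5 and 13.7 for SOX6. Thus all 4 listed genes with introns lay below the SoxC genes in cytoplasmic level per kb of exon. In the nuclear fraction SOX5 and SOX6 had 266 and 172 normalized counts per kb of exon, beside 432 for SOX11, 185 for SOX4 and 35.2 for SOX12. These exon lengths are over all transcripts, 11289 bases in SOX5 and 20093 in SOX6, against 7076 and 9304 in their reference transcripts. Per kb of reference exons both genes would lie higher, so their place beside SOX4 depends on the length used. Per kb of whole gene, which divides their reads over the introns as well, the nuclear level was 2.90 for SOX5 and 4.47 for SOX6, below SOX13 at 8.38 and SOX9 at 9.94. The files do not separate exonic from intronic reads, so which of these lengths fits the nuclear RNA of SOX5 and SOX6 was not tested.

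**Figure D2:**
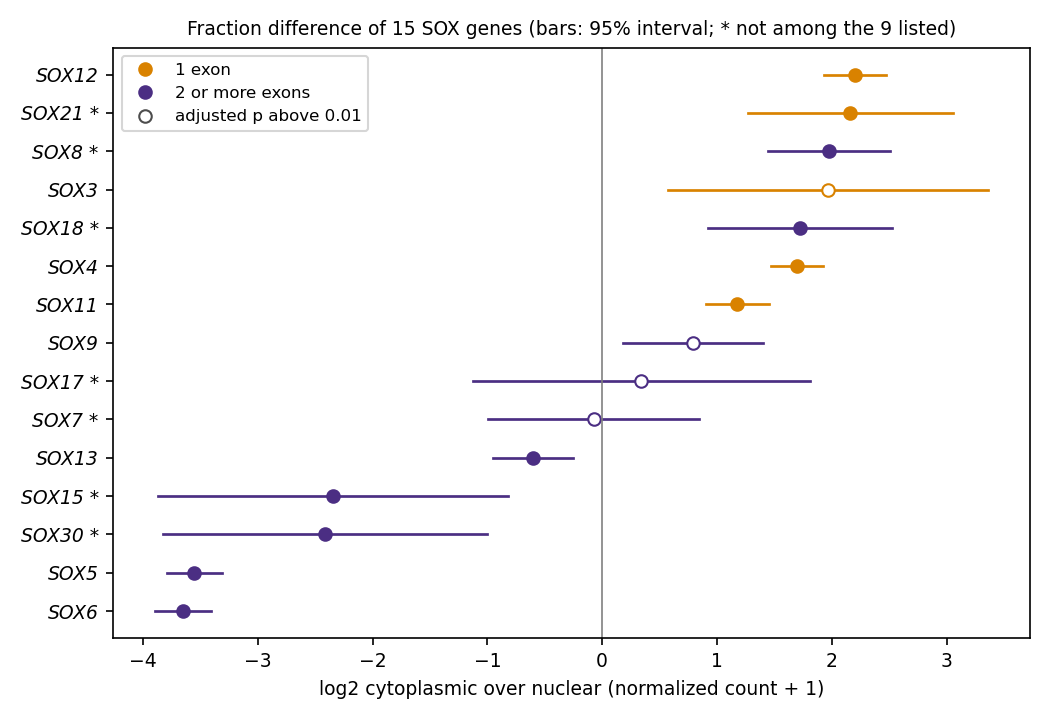
The log2 difference of each of the 15 tested SOX genes, cytoplasmic over nuclear, on the horizontal axis, with bars for the 95% interval of the limma fit; orange genes have 1 exon, purple genes have more, and open marks did not pass an adjusted p of 0.01. All 5 orange marks lie to the right of 0, and the purple marks run from SOX8 at 1.98 to SOX6 at -3.65.

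Of 10 other SOX genes looked for, 7 were tested. SOX21, a SoxB2 repressor and the other tested SOX gene without an intron, was higher in the cytoplasmic fraction, with 8 and 10 counts in the nuclear and 38 and 21 in the cytoplasmic libraries (log2 difference 2.16, SE 0.40, adjusted p = 5.6e-04). With SOX21 added, 4 of 5 SOX genes without introns were called and the median was 1.97. The SOX genes with introns were more mixed, since of 10 genes 2 were higher in cytoplasmic RNA, 5 were higher in nuclear RNA and 3 were not called, with a median of -0.34. The nuclear calls include SOX15 and SOX30, which passed the filter on the mean only through the nuclear libraries.

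The other SOX genes with introns are mostly compact. SOX8, the SoxE relative of SOX9, spans 5.21 kb and had 29.1 and 26.1 normalized counts in the nuclear and 120 and 103 in the cytoplasmic libraries. It was higher in the cytoplasmic fraction by 1.98 on the log2 scale (SE 0.24, adjusted p = 2.0e-05), above the value of SOX4. SOX18, a SoxF factor of endothelium with a single intron in 2.06 kb, had 12.7 and 8.41 nuclear and 38.7 and 34.5 cytoplasmic normalized counts (log2 difference 1.73, SE 0.36, adjusted p = 0.0013), and it was not called without the deeper cytoplasmic library (1.64, adjusted p = 0.0115) or with library totals (adjusted p = 0.018). Both genes with short introns therefore lay among the SOX genes without introns.

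The SoxF genes SOX17 and SOX7 were not called. SOX17 had 1 and 4 counts in the nuclear and 2 and 2 in the cytoplasmic libraries, and SOX7 had 21 and 18 in the nuclear and 17 and 8 in the cytoplasmic libraries. Their fractions overlapped, and the 95% intervals ran from -1.13 to 1.81 for SOX17 and from -0.99 to 0.85 for SOX7.

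SOX15 and SOX30 were higher in the nuclear fraction on few counts. Their cytoplasmic means were 1.33 and 0.66 normalized counts, so both passed the limit of 2 only through the nuclear libraries. A gene that enters in this way can hardly be called other than nuclear, so these calls carry little weight. SOX15, which spans 1.92 kb with 1 intron in its reference transcript, had 10 and 12 counts in the nuclear and 0 and 2 in the cytoplasmic libraries (log2 difference -2.34, SE 0.69, adjusted p = 0.00998). SOX30, a factor of spermatid development that spans 45.8 kb, had 9 and 9 counts in the nuclear and 0 and 1 in the cytoplasmic libraries (log2 difference -2.41, SE 0.64, adjusted p = 0.0054). SOX15 is thus a short gene on the nuclear side, at a depth of 24 counts in all. Without the deeper cytoplasmic library neither gene was called, with log2 differences of -1.41 for SOX15 (adjusted p = 0.041) and -1.81 for SOX30 (adjusted p = 0.020), and both calls were also lost without an intensity trend or without a cut on the mean. Of the 3 other genes looked for, SOX10 had a mean of 0.849 normalized counts, below the limit of 2, SOX14 was listed at 0, and SOX1 is not analysed here.

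**Figure D3:**
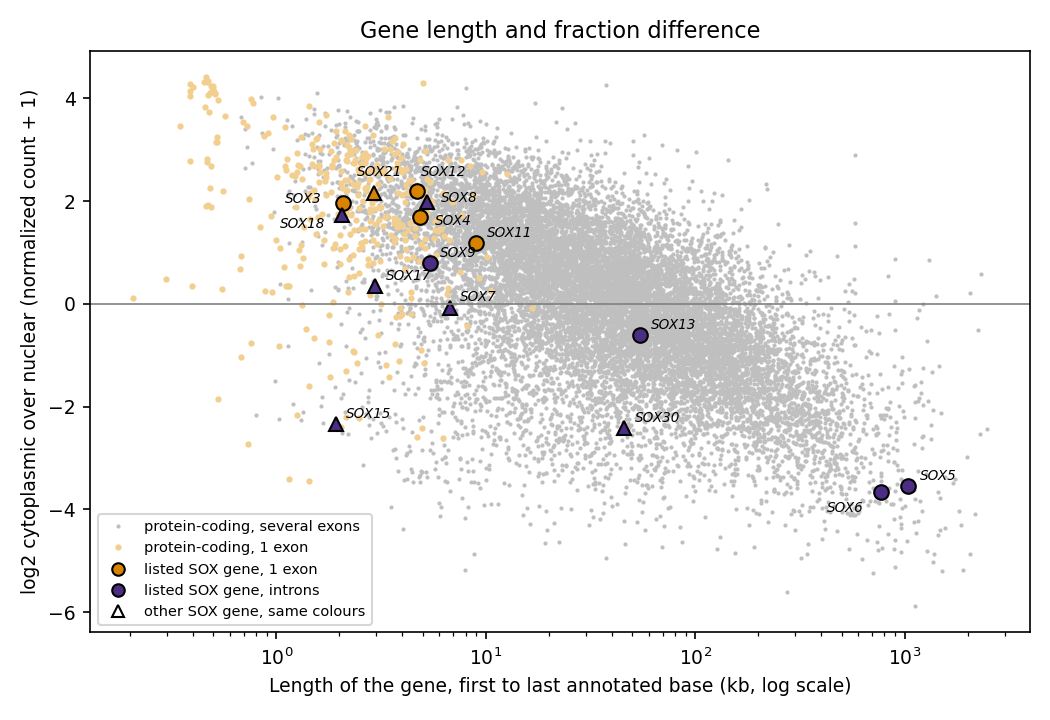
Gene length on a log scale against the log2 difference, cytoplasmic over nuclear, for tested protein-coding genes; grey points have several exons, pale points 1 exon, circles are the listed SOX genes and triangles the other SOX genes. SOX genes under 10 kb lie between -0.07 and 2.20 except SOX15 at -2.34, SOX13 and SOX30 lie below 0, and SOX5 and SOX6 are the lowest of the SOX genes and among the longest genes.

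Length and difference ran in opposite directions among the SOX genes. Spearman's rho between the span of a gene and its log2 difference was -0.60 over the 15 tested SOX genes, -0.65 over the 10 with introns, and -0.93 over the 8 with a mean over 50 normalized counts. These genes share the same 4 libraries, and the values describe this set of genes. Among tested protein-coding genes of 1 exon, with all histone genes left out, 222 of 315 (70.5%) were higher in the cytoplasmic fraction and the median was 1.87. SOX12 exceeded 61.9% of these genes, SOX3 52.1%, SOX4 44.1% and SOX11 29.8%. Genes with several exons and a span under 10 kb, such as SOX9 and SOX8, were higher in the cytoplasmic fraction for 1559 of 2324 (67.1%), with a median of 1.56. Histone genes were not left out of this or the other classes with several exons. Of protein-coding genes over 300 kb, 647 of 757 (85.5%) were higher in the nuclear fraction, with a median of -2.30, so that SOX5 and SOX6 lay below the middle of that group too. Genes with several exons between 10 and 100 kb, where SOX13 falls, were split, with 3539 of 8928 higher in cytoplasmic RNA and 2242 in nuclear RNA.

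**Figure D4:**
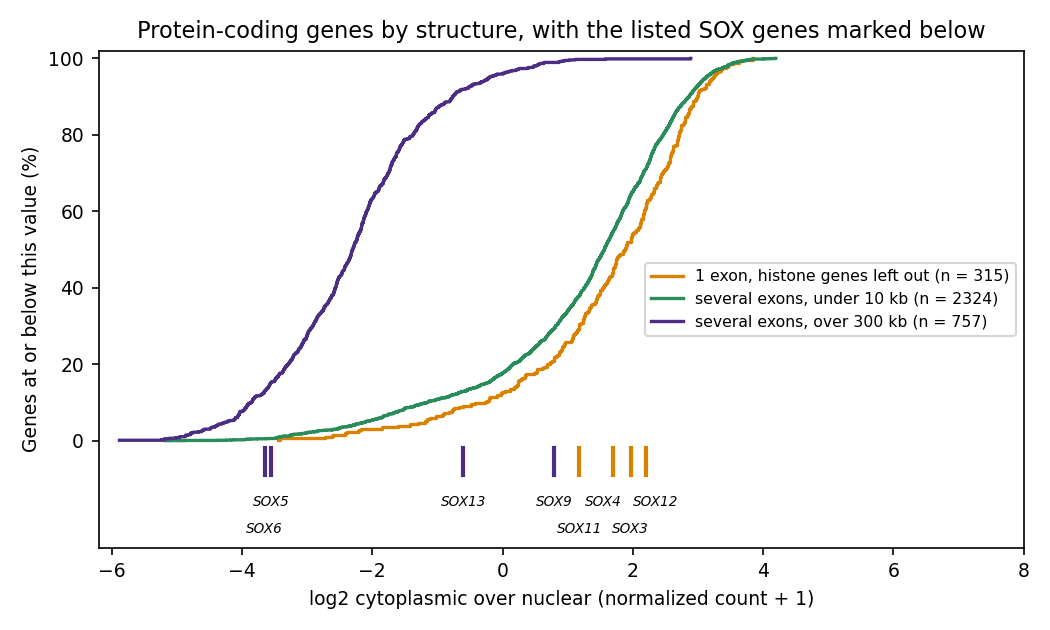
Cumulative share of tested protein-coding genes against the log2 difference, cytoplasmic over nuclear, for genes of 1 exon other than histone genes, genes of several exons under 10 kb and genes of several exons over 300 kb, with the 8 tested SOX genes as ticks below. The medians are 1.87, 1.56 and -2.30, and the curve of short genes with introns lies close to that of genes of 1 exon. Histone genes were left out only of the genes of 1 exon.

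Neighbouring genes bear on several of these values. The authors removed stretches covered by more than 1 gene from their annotation before counting, and the strand setting is not given in the sources used here. In GENCODE 44, SOX2 lies wholly within SOX2-OT, a long noncoding RNA on the same strand, and SOX1 within SOX1-OT in the same way. SOX2-OT had 779 and 675 counts in the nuclear and 33 and 24 in the cytoplasmic libraries (log2 difference -3.99, SE 0.17, adjusted p = 6.2e-09). Whether the missing SOX2 row comes from that overlap was not tested. SOX12 and SOX9 are wholly covered on the opposite strand only, by genes that include NRSN2-AS1 and SOX9-AS1, and both were measured. NRSN2-AS1 was higher in the nuclear fraction, by -1.21 on the log2 scale (SE 0.23, adjusted p = 5.6e-04), and SOX9-AS1 by -3.26 (SE 0.53, adjusted p = 2.1e-04), against the direction of their SOX genes. SOX21 and SOX15 are likewise wholly covered on the opposite strand, and SOX4 over 37.9% of its length. SOX21-AS1 had a log2 difference of 2.01 (SE 0.21), in the direction of SOX21. MPDU1, which covers SOX15, had 1.93 (SE 0.11), against the direction of SOX15. For SOX11, 57.4% of the gene is covered by another gene on its strand, so the counted length of SOX11 may be shorter than annotated. In SOX7, 49.3% of the exonic bases are covered by 2 genes, 1 of them on its strand, so its few counts may come from part of the gene.

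Other transcription factor genes of like structure were described beside them. Of 40 genes listed as intronless or nearly so, 32 were tested, and 27 of them (84.4%) were higher in cytoplasmic RNA and none in nuclear RNA, with a median of 2.17. They ran from BHLHE23, a bHLH factor, at 0.35 (SE 0.66, adjusted p = 0.65) to CEBPD, a leucine zipper factor of the acute response, at 2.93 (SE 0.35, adjusted p = 1.8e-05). The list is mixed, since over all transcripts some of its genes have several exons and span more than 10 kb. The 22 with a single annotated exon had 18 cytoplasmic calls and a median of 2.18. The SOX median of 1.83 was thus below that of this list. Of 32 listed transcription factor genes with long introns, 31 were tested, 27 (87.1%) were higher in nuclear RNA and none in cytoplasmic RNA, and the median was -1.99. RORA, a nuclear receptor, was the lowest at -4.63 (SE 0.11, adjusted p = 6.1e-10) and TEAD4, a partner of YAP, the highest at 0.02 (SE 0.14, adjusted p = 0.90). SOX5 and SOX6 fell between FOXP1 at -3.18 and TSHZ2 at -3.80 in this list.

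Genes of other HMG-box proteins showed both directions. Of 20 tested, 9 (45.0%) were higher in cytoplasmic RNA and 8 (40.0%) in nuclear RNA, with a median of 0.24. Tested protein-coding genes also went both ways, with 37.2% higher in cytoplasmic RNA and 32.5% in nuclear RNA. HMGB3, a chromatin protein, was the highest at 2.20 (SE 0.10, adjusted p = 9.3e-09), and TOX, a factor of T cell development, the lowest at -4.03 (SE 0.78, adjusted p = 7.8e-04). Of 13 tested partners and targets of SOX factors, 5 (38.5%) were higher in cytoplasmic RNA and 4 (30.8%) in nuclear RNA, with a median of 0.36. These shares were close to those of tested protein-coding genes. TUBB3, the neuronal tubulin and a SoxC target, was the highest at 1.99 (SE 0.18, adjusted p = 1.8e-06), and PAX3 the lowest at -1.61 (SE 0.12, adjusted p = 3.1e-07). Among these lists, the genes nearest to the median of the SOX genes without introns, by the absolute difference in log2 values over the 4 libraries, were HMG20B at 1.83, ATOH1 at 1.87 and POU5F1 at 1.89. ATOH1 and POU5F1 did not pass the threshold (adjusted p = 0.013 and 0.027). Near the median of the SOX genes with introns were MEIS1 at -1.99 and BACH2 at -2.17, which both span more than 140 kb.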

How the data were processed

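RNA of 2 nuclear and 2 cytoplasmic fractions was sequenced, and per the labels and methods the authors aligned reads to hg38 with STAR, counted them with featureCounts 2.0.2 and compared fractions with DESeq2. No column of the deposited table belongs to a single library. The mean normalized count is a signal averaged by the authors over all 4 libraries, and the fold change and standard error are the authors' log2 values. The table also holds the authors' statistic and p-values, which were not used.

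The mean is a sum of 4 whole counts, each multiplied by a step set by the size factor of its library. The steps were read from genes with 1 count, and a fraction was given to each step by the sign of the fold change. Counts were then searched that return the mean and, for higher genes, the authors' log2 fold change and standard error. These columns served only that search. Of 22672 genes with a mean of at least 2, counts of 22328 (98.5%) were recovered, with a median residual of 2.0e-09 on the log2 scale, and 280 of the 344 others had a mean over 5000. The search was tested on simulated data.

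Fractions were compared with limma 3.58.1 in R 4.3.3 (lmFit, eBayes with an intensity trend) on log2(normalized count + 1), over genes with a mean of at least 2, with Benjamini-Hochberg adjustment. A count model was not used because these counts are reconstructions. The pseudocount of 1 understates differences of low genes. The p-values rest on 2 replicates per fraction, with the variance of each gene drawn towards a trend fitted over all tested genes. The median total degrees of freedom were 10.5, of which 2 came from the gene's own replicates. Alternatives were library totals, centring, voom weights, no trend, pseudocounts of 0.5 and 5, other filters, Bonferroni adjustment and each library left out. Gene structure came from GENCODE 44, in which 99.1% of tested genes were found. The authors counted reads on a custom annotation built from an earlier GENCODE release with NCBI genes added. The counted gene models, lengths and overlaps can therefore differ from those given here. Named genes were all tested SOX genes, the highest and lowest of each list, and the 3 nearest to each SOX median. A gene that this rule names is not reported here. FOXP1 and TSHZ2, the genes overlapping SOX genes and the ribosomal protein genes were chosen after values were seen. The members and lists were chosen with earlier results of these data known.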

Additional observations from a re-analysis of the deposited data

How the results depend on the processing

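The direction of the 8 listed SOX genes was the same under every alternative that gave them a value. Without a cut on the mean, or without an intensity trend, SOX13 lost its call (adjusted p = 0.017 and 0.071), and with Bonferroni adjustment SOX11 (0.042) and SOX13 did. SOX9 was called with voom weights (0.0062) and among genes with a mean over 50 (0.0084), where SOX3 could not be fitted. SOX3 was called with voom weights (0.0036) and a pseudocount of 5 (0.0047), and voom weights gave 5 cytoplasmic SOX calls. Library totals gave 3985 cytoplasmic and 10507 nuclear calls over all genes and medians of 1.24 and -2.74 for SOX genes without and with introns. Bonferroni adjustment left 2653 and 2554 calls. A pseudocount of 5 gave a median of 1.43 for SOX genes without introns, and every tested SOX gene with introns gave -0.34. SOX17 turned to -0.10 with library totals, and with a library left out it ran from -0.32 to 1.00 and SOX7 from -0.50 to 0.35, and neither was called. With each library left out in turn, the calls over all genes ran from 0 to 5622 (cytoplasmic) and from 0 to 6972 (nuclear), and those of the listed SOX genes from 0 to 4 and from 0 to 3. The medians ran from 1.34 to 1.97 and from -2.21 to -1.95. The lone library of a fraction was then assumed to vary like the other fraction. Genes too abundant for their counts to be recovered are missing from all counts of calls, and low genes such as SOX3, SOX15 and SOX30 are limited by depth. No paired analysis was possible because the replicate number of each library is not known from the deposited table.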
